A study of Mus musculus with 9 samples.

Results

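This report describes the late-numbered mouse miRNA annotations in small extracellular vesicles (smEVs): the rows of the count table whose miRBase number is 1000 or higher. The 76 rows were chosen by their name and by a total of at least 9 counts over the 9 libraries, out of 1164 rows in all and 309 rows that reached that total. Rows with a locus number after a hyphen were not taken, and 6 late-numbered rows were left out by name: miR-6538 (42774 counts), miR-6240 (32570), miR-5126 (30918), miR-6239 (685), miR-1983 (125) and miR-6937 (17). Since the members were selected on their summed counts, their level and detection are given below as a description with no test.

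The smEVs came from immortalised mouse kidney medullary (KM) cells, from the inner part of the kidney, kept for 24 h without serum so that the cells grew cilia. There were 3 libraries each from Bbs4-/- cells, Bbs6-/- cells and wild-type (WT) cells, and each genotype was represented by 1 line rather than by separate animals. Bbs4 is a subunit of the BBSome, the complex that carries membrane proteins into and out of the cilium, and Bbs6 (Mkks) resembles a chaperonin and helps to put the BBSome together. The comparison asks whether the loss of either protein changes the small RNA that the vesicles carry. The study describes the 3 vesicle pellets of each line as independent and its experiments in general as biologically independent, while the labels do not say which cultures the pellets came from, so p-values measure the spread between pellets of 1 line.

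A miRNA is cut from a hairpin in a longer transcript, first by Drosha in the nucleus and then by Dicer in the cytoplasm, and the bases 2 to 8 of the mature arm, the seed, pair with target mRNAs. miRBase numbers its entries in order of submission. The low numbers therefore hold the families found by cloning and by conservation, while the high numbers came mainly from deep sequencing. Some late entries overlap other small RNAs: small nucleolar RNAs (snoRNAs), which direct chemical modification of ribosomal RNA, their Cajal body relatives (scaRNAs), tRNAs, and mirtrons, hairpins that are whole short introns and need the spliceosome in place of Drosha.

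Late-numbered entries made up most rows of the table, and the members a small share of the RNA. Of 652 late-numbered rows of that name form, 56.0% of the table, 466 had no count at all, 104 had 1 to 8 counts, and 28.5% had at least 1 count. Of the 440 lower-numbered rows of the same form, 55.5% had a count and 44.8% reached 9 counts. The 76 members held 20845 counts, 0.999% of all counts, or 6.13% when the 6 rows left out by name, which are among the 652, were added. The lower-numbered rows held 64.9%. Most of the remainder lay in rows with a locus number, in let-7 rows and in the rows left out by name.

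Library totals ran from 176935 to 457163 counts in Bbs4-/- libraries, from 192654 to 423784 in Bbs6-/- libraries and from 64118 to 130905 in WT libraries, so 3 counts, the limit that a count of 0 allows, stood for 6.98 to 36.5 CPM across libraries. Levels below are TMM-scaled CPM, counts scaled to a common library total (CPM) after edgeR's correction for composition, and they are not divided by length, since the mature arms measured only 18 to 26 bases. The 6 miRNAs of the epithelial list (the miR-200 family and miR-205) summed to 10000 to 21400 CPM in every library. The kidney tubule list summed to 26100 to 47400 CPM, most of it miR-30a (mean 34610 CPM). Its miR-192, miR-204 and miR-215 had means of 87.7, 40.0 and 8.53 CPM, and its miR-194-1 had no count. The muscle list summed to 853 to 2360 CPM. Of its 3 miRNAs only miR-206 (mean 1640 CPM) reached 9 counts in all, and miR-1a-1 had no count. The neuron list summed to 12.6 to 467 CPM, and of its 2 miRNAs only miR-9 reached 9 counts. The blood list stayed between 34.2 and 170 CPM. The liver list (miR-122) reached 85.1 CPM and the endothelial list (miR-126a) 136 CPM. In the mesenchymal list, which summed to 20.0 to 273 CPM, miR-145a and miR-214 had no count.

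Mature sequences of 65 of the 76 members were found by name in the RefSeq table (build GRCm38.p6). They are printed 5′ to 3′ with the seed in capitals for most of the abundant members and for those on which a result below rests. The rows carry no arm name, so where RefSeq lists both arms the one that was counted is not known.
miR-2137: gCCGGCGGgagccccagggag
miR-3068-5p: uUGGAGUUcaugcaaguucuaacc
miR-3068-3p: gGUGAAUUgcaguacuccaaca
miR-1839-5p: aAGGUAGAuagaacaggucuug
miR-3968: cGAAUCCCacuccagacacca
miR-5110: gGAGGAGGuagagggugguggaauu
miR-5119: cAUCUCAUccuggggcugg
miR-1843b-5p: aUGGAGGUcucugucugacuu
miR-6238: uUAUUAGUcaguggaggaaaug
miR-1943-5p: aAGGGAGGaucugggcaccugga
miR-1943-3p: cAGGUGCCagcuccucccuuc

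The sequences of the members were richer in G and C than those of the lower-numbered rows. Over 98 member arms the median G+C content was 56.5% (quartiles 50% and 63.5%), and over 286 arms of 163 lower-numbered rows it was 45.5% (quartiles 40.9% and 54.5%). Arms with more than 60% G+C made up 36.7% of the member arms and 14% of the others. The most abundant member, miR-2137, was at 85.7%, and the median arm was 22 bases long in both sets. For 49.2% of the matched members, against 24.5% of the matched lower-numbered miRNAs, RefSeq lists only 1 arm.

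Seeds were rarely shared. miR-3473b and miR-3473e shared the seed GGCUGGA, and miR-1947-3p and miR-3473d shared CACUGAG with each other and with the lower-numbered miR-674-5p. The seed of miR-1943-5p, AGGGAGG, was that of miR-149-3p. A longer stretch joined miR-1843a-5p and miR-1843b-5p, which had 20 bases in common, so reads cannot be told apart between these rows by that stretch. The same holds for miR-3473b with miR-3473e (18 shared bases) and for miR-3473a with miR-3473b (16 shared bases).

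Some members overlapped other annotated RNAs. An arm lay inside a snoRNA or scaRNA gene on the same strand for 9 of the 65 matched members (13.8%), against 2 of 163 lower-numbered miRNAs (1.23%). An arm lay within 2 bases of an intron's end for 9 members (13.8%), against 2 (1.23%). An arm occurred letter for letter in transcripts of 5 or more other genes for 3 members (4.62%), against 1 (0.613%). The groups were defined from the annotation after the counts had been seen, they do not overlap, and no test was made of them.

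**Figure D1:**
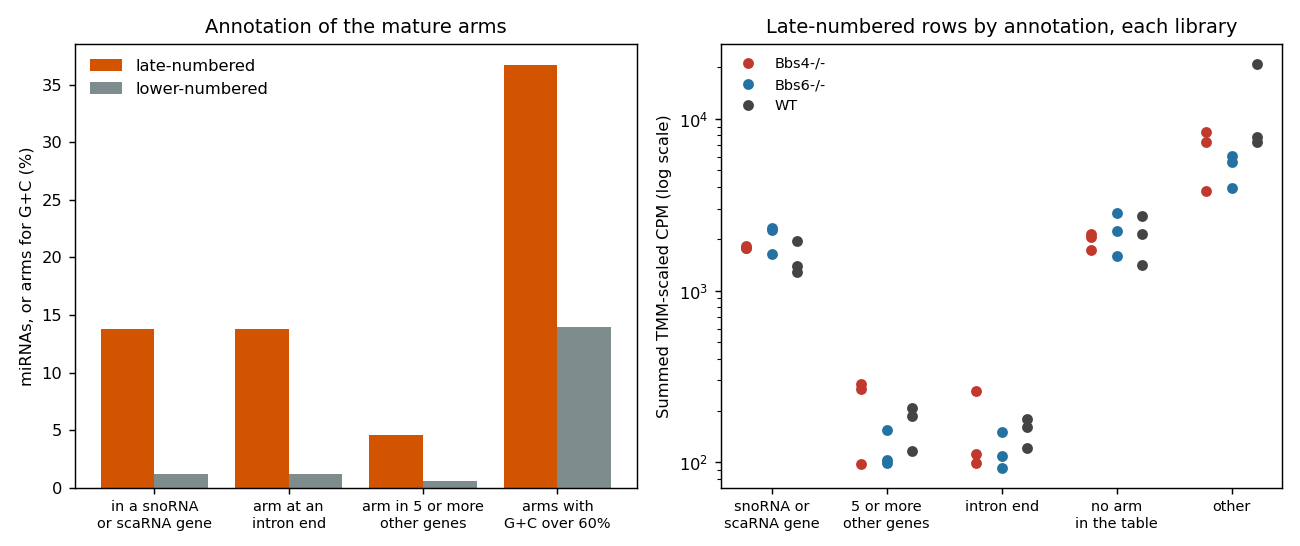
Left, share of matched miRNAs (or of arms, for G+C content) with each annotation, in percent, for late-numbered members (orange) and lower-numbered rows (grey). Right, TMM-scaled CPM summed over the members of each annotation group (log axis), each point a library, coloured by line. The snoRNA and scaRNA group lies between 1290 and 2320 CPM in all 9 libraries, and the remaining matched members reach their highest sum in a WT library.

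The snoRNA and scaRNA group was detected in nearly every library. Its 9 members, miR-3068 (1090 counts), miR-1839 (788), miR-1843b (626), miR-5121 (460), miR-3535 (305), miR-3084 (298), miR-1291 (83), miR-1843a (69) and miR-6516 (55), held 3774 counts, 18.1% of the members' counts, and 8 of them had a count in every library. Their arms and places are shown because a place inside a gene typed as a snoRNA or scaRNA is what these members share.
miR-5121, in Snord33 within Rpl13a, chr7:45126925-45126945, minus strand: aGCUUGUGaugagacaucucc
miR-3535, in the snoRNA gene Gm24148 at the edge of an exon of Ncl, chr1:86352062-86352087, minus strand: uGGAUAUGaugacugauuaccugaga
miR-3084-3p, in Snora19 in an intron of Eif3a, chr19:60774334-60774354, minus strand: uUCUGCCAgucuccuucagac
miR-1291, in Snora34 in an intron of Kansl2, chr15:98519828-98519853, minus strand: aUGGCUCUuacugaagacuagcaguu
miR-1843a-5p, in Scarna3b, chr12:80391654-80391674, minus strand: uAUGGAGGucucugucugacu
miR-6516-5p, in the scaRNA gene Gm26083 in an exon of Snhg20, chr11:117077370-117077391, plus strand: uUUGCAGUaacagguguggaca

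The other members of this group were printed with the abundant rows. miR-3068-3p lies at chr12:87437685-87437706 on the minus strand, in Mir3068, a gene that GENCODE types as a snoRNA. miR-1839-5p lies at chr7:81529919-81529940 on the plus strand, in Mir1839, a gene typed as a scaRNA. Both genes carry the name of the miRNA itself. miR-1843b-5p lies at chr1:159340362-159340382 on the plus strand, in Scarna3a within an intron of Cop1, a ubiquitin ligase. Its whole arm also occurs in Scarna3b, where miR-1843a lies. Of the other hosts, Rpl13a is a ribosomal protein, Eif3a a subunit of a translation initiation factor, and Ncl (nucleolin) a nucleolar protein. A second copy of miR-3084 lies in Gm23658 within an intron of Cbwd1, and the row does not separate the copies.

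Summed over these 9 members, the level was 1780 ± 25.7 CPM in Bbs4-/- libraries, 2070 ± 373 CPM in Bbs6-/- libraries and 1540 ± 356 CPM in WT libraries (SD, n = 3 each). The ranges of the 3 lines overlapped, at 1760 to 1810, 1640 to 2320 and 1290 to 1950 CPM.

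miR-3068 measured 278, 421 and 524 CPM in Bbs4-/-, 209, 984 and 885 CPM in Bbs6-/-, and 243, 151 and 356 CPM in WT. The Bbs6-/- libraries 3 and 4 stood above all others, and the line's remaining library lay within the WT range. The log2 difference between Bbs6-/- and WT was 1.5 (SE 0.61, edgeR's quasi-likelihood test, adjusted p = 0.181).

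miR-1839 measured 455, 443 and 396 CPM in Bbs4-/-, 428, 280 and 412 CPM in Bbs6-/-, and 268, 294 and 569 CPM in WT. miR-1843b measured 335 ± 123 CPM in Bbs4-/-, 299 ± 33.1 CPM in Bbs6-/- and 313 ± 102 CPM in WT (SD, n = 3). For both, the 3 lines overlapped, and the log2 differences from WT lay between -0.07 and 0.06 with SEs of 0.36 to 0.39.

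miR-3084 had 22, 41 and 66 counts in Bbs4-/-, 17, 74 and 59 in Bbs6-/-, and 2, 14 and 3 in WT. WT libraries 1 and 4 were low and WT library 3, at 125 CPM, lay within the Bbs6-/- range. The log2 difference from WT was 1.40 in Bbs4-/- (SE 0.63, edgeR, adjusted p = 0.191) and 1.72 in Bbs6-/- (SE 0.73, adjusted p = 0.202). Without WT library 3 the differences were 2.85 (adjusted p = 0.0102) and 2.95 (adjusted p = 0.0678), and both rows would have been called. Leaving out Bbs6-/- library 2 in place of WT library 3 gave 2.02 in Bbs6-/- (adjusted p = 0.0586), which also passed.

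The members with an arm at an intron's end were scarce. Together miR-1981 (120 counts), miR-7033 (36), miR-3102 (28), miR-6944 (25), miR-3064 (15), miR-3082 (12), miR-5132 (11), miR-6909 (9) and miR-7070 (9) held 265 counts, 1.27% of the members' counts, and miR-1981 alone had a count in all 9 libraries. Both arms of miR-1981, miR-3102, miR-6944 and miR-7070 reached the ends of the same intron, the layout of a mirtron, and the arms of the first and the last of these are shown with their places.
miR-1981-5p, intron of Marc2, chr1:184822465-184822488, minus strand: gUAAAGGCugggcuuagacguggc
miR-1981-3p, the other end of that intron, chr1:184822409-184822429, minus strand: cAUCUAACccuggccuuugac
miR-7070-5p, intron of Fbxw9, chr8:85062086-85062106, plus strand: gUGAGGGGagcugaggcagga
miR-7070-3p, the other end of that intron, chr8:85062152-85062171, plus strand: cAGGCUCUccuucccuccag

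miR-1981 measured 183, 67.2 and 58.2 CPM in Bbs4-/-, 60.4, 37.6 and 42.9 CPM in Bbs6-/-, and 36.5, 53.4 and 32.3 CPM in WT. Bbs4-/- library 1 stood apart from the other 8, and the Bbs4-/- libraries did not overlap those of WT. These 2 lines did not overlap in 98 of the 308 rows tested and in 10 of the 69 members. The log2 difference was 1.18 (SE 0.65, edgeR, adjusted p = 0.285). miR-6944, in Dbn1, which encodes the actin-binding protein drebrin, had 1, 1 and 2 counts in Bbs4-/-, 0, 1 and 11 in Bbs6-/- and 3, 3 and 3 in WT, so that all but 1 library lay at or under the limit of 3 counts.

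Repeat sequences accounted for a few members. miR-3473a (127 counts), miR-3470b (117) and miR-3473b (52) had arms found in transcripts of 146, 546 and 344 other genes, and their reads could not be assigned to a hairpin from the sequence alone. Their arms are shown because the shared letters are what makes these rows uncertain.
miR-3473a: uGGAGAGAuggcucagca
miR-3473b: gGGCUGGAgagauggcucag
miR-3473e: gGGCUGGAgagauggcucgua
miR-3470b: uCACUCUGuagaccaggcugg

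Of the 9 rows listed as repeat-derived, miR-3470a, miR-3470b and miR-3473a to miR-3473g, 6 reached the count limit, with 462 counts in all. None of the 6 passed an adjusted p of 0.1 in any comparison. Of all rows tested, 15.3% passed for Bbs4-/- against WT, 15.1% for Bbs6-/- against WT and 8.09% between the mutants, so none among 6 is little information. miR-3473a measured 114, 107 and 69.8 CPM in Bbs4-/-, 38.4, 58.1 and 34.4 CPM in Bbs6-/-, and 109, 89.1 and 0 CPM in WT. The mutant lines did not overlap (log2 difference 1.13, SE 0.81, edgeR, adjusted p = 0.565), and WT overlapped both. Between the mutants, 68 of the 309 rows tested and 9 of the 76 members did not overlap.

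tRNA letters appeared in a few members. miR-6481 (25 counts) was identical over its 19 bases to part of the mitochondrial tRNA for phenylalanine, mt-Tf, besides its own hairpin at chr3:99199367-99199385 on the minus strand.
miR-6481: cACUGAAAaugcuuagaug
miR-5100: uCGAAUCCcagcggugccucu
The letters CGAAUCC, found in the T arm of many tRNAs, occurred in miR-3968 and miR-5100 and in no other of the 1679 mature arms of the table, a share of 0.119% (same strand only). miR-3968 also ends in CCA, the letters at the 3′ end of every mature tRNA. Matches to other parts of nuclear-encoded tRNAs were not searched for, so further members may hold them.

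miR-6481 had 0, 0 and 1 counts in Bbs4-/-, 5, 9 and 7 in Bbs6-/- and 3, 0 and 0 in WT. All Bbs6-/- libraries exceeded all Bbs4-/- libraries (edgeR, adjusted p = 0.243). The Bbs6-/- mean was 1.99-fold the level that 3 counts per library stood for in Bbs4-/-. miR-3968 (777 counts) measured 759, 609 and 433 CPM in Bbs4-/-, 461, 198 and 189 CPM in Bbs6-/-, and 389, 365 and 349 CPM in WT. The Bbs4-/- libraries lay above those of WT, as did Bbs6-/- library 2. The log2 difference between the mutants was 1.09 (SE 0.39, edgeR, adjusted p = 0.139). miR-5100 (44 counts) had 2 to 10 in each library and differed from WT by -0.10 in Bbs4-/- and by -0.90 in Bbs6-/- (SE 0.91 and 1.03).

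The members' level was set by a few rows. miR-2137 held 7263 counts, 34.8% of the members' counts, and miR-5099 held 3562, or 17.1%, ranking 38 and 53 of the 309 rows by mean CPM, and the next, miR-3068, ranked 84. The median mean level was 17.6 CPM over the 76 members (quartiles 8.34 and 64.9) and 160 CPM over the 197 lower-numbered rows (quartiles 24.9 and 1330). A total under 30 counts was found for 37 members (48.7%) and 30 lower-numbered rows (15.2%).

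**Figure D2:**
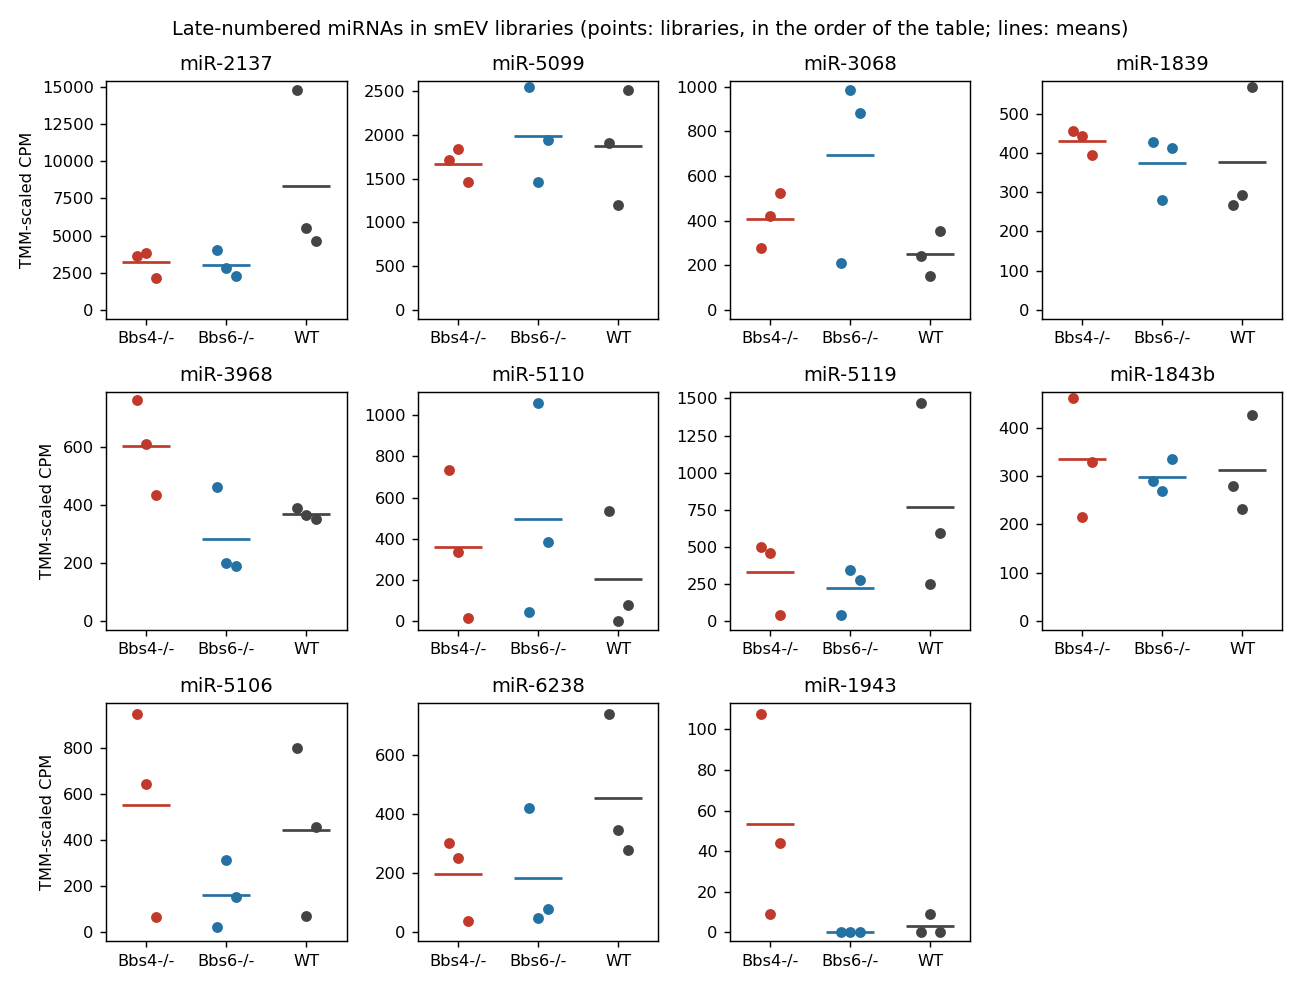
TMM-scaled CPM of the 10 members with the highest mean level, and of miR-1943, in each library. Points are libraries (3 per line, in table order) and lines are means, with a separate linear axis from 0 for each miRNA. miR-2137 lies above both mutants in all WT libraries, at 4654 to 14760 CPM, and miR-5110, miR-5119 and miR-5106 have a low library in each line.

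Detection followed the counts. A count in every library was found for 26 members (34.2%) and 130 lower-numbered rows (66.0%), and 39 members (51.3%) against 41 lower-numbered rows (20.8%) had no count in at least 3 of the 9 libraries. Among rows with 9 to 29 counts, 37 members had a count in 4.68 libraries on average and 30 lower-numbered rows in 4.43. Had the counts of each line fallen on its libraries by depth alone, 6.36 and 6.21 libraries would have held one, so low rows of both kinds were unevenly spread.

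Among the 76 members, 76.3% to 85.5% had a count in a Bbs4-/- library, 63.2% to 78.9% in a Bbs6-/- library and 59.2% to 68.4% in a WT library. The WT libraries were also the shallowest. With each library thinned in expectation to the smallest total of 64118 counts, 62.7% ± 1.89, 54.6% ± 3.57 and 60.1% ± 3.29 of the members (SD, n = 3) would have held a count, against 82.4% ± 1.78, 80.5% ± 3.67 and 81.3% ± 4.41 of the lower-numbered rows. The Bbs4-/- libraries, at 60.6% to 64.2%, lay above the Bbs6-/- libraries, at 52.0% to 58.7%, and WT, at 57.3% to 63.7%, overlapped both. The limit of 9 counts was on a raw total, to which the deeper mutant libraries added more. A member could pass through 1 line alone, as miR-7070 did with 9 counts, all in Bbs4-/-. Thinning does not undo this, and its part in these ranges was not tested.

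**Figure D3:**
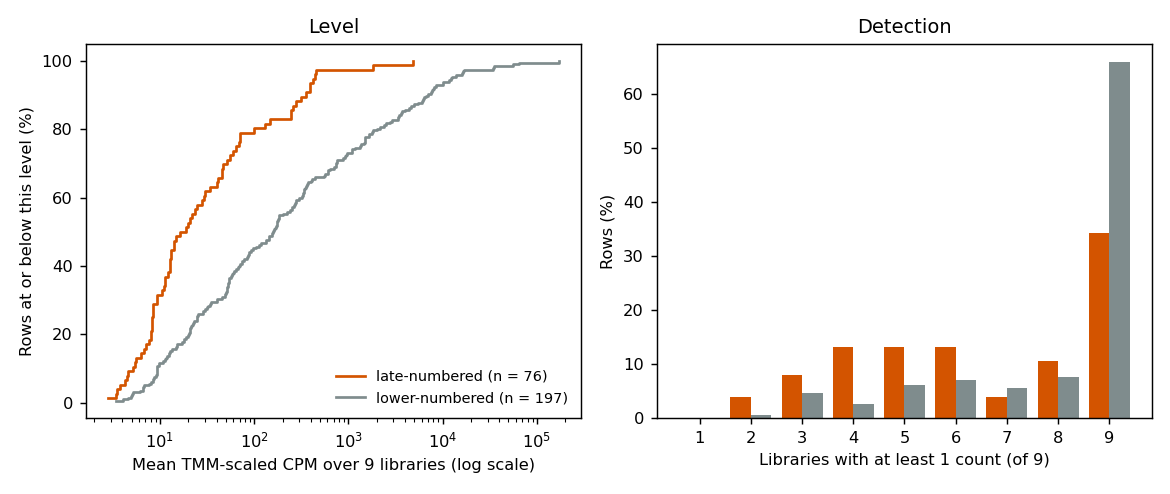
Left, cumulative share of rows (percent) by mean TMM-scaled CPM over 9 libraries (log axis). Right, share of rows (percent) by the number of libraries with at least 1 count. Members (orange) lie at lower levels than lower-numbered rows (grey), and 34.2% of them, against 66.0%, have a count in all 9 libraries.

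The members' share of each library was highest in WT library 1. Members made up 0.702% to 1.22% of the counts of Bbs4-/- libraries, 0.719% to 1.02% of Bbs6-/- libraries and 1.16% to 3.15% of WT libraries. Leaving miR-2137 aside, the shares were 0.501% to 0.819%, 0.529% to 0.643% and 0.584% to 1.26%, and WT overlapped both mutants. The rows left out by name took 3.08% to 5.51% of the counts of Bbs4-/- libraries, 2.59% to 5.46% of Bbs6-/- libraries and 12.6% to 14.6% of WT libraries. Their share was higher in every WT library than in any mutant library, whereas the members' share in WT overlapped that in Bbs4-/-. WT libraries were also the shallowest. The part of depth and of those rows in the members' differences was not tested. A share of a library measures neither the number of vesicles nor the RNA in each.

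Several abundant members varied widely between libraries of a line. Among rows with at least 100 and under 1000 counts, the coefficient of variation (CV) between libraries of 1 line, pooled over the lines, had a median of 61.7% over 19 members (25.1% to 117%) and 36.5% over 60 lower-numbered rows (13.7% to 98.7%). The 5 of these members that lie in a snoRNA or scaRNA gene had a median CV of 29.1%, and the other 14 one of 72.0%. Among rows with 30 to 99 counts the medians were close, at 79.2% over 17 members and 78.2% over 40 lower-numbered rows. These are descriptions with no test.

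**Figure D4:**
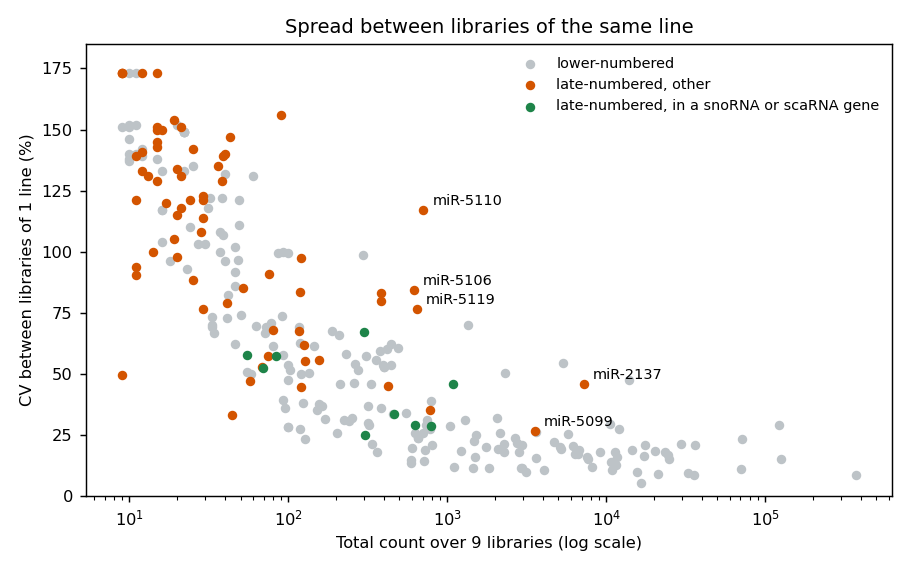
CV of TMM-scaled CPM between the 3 libraries of a line, pooled over the lines in which the row had a count (percent), against the total count over 9 libraries (log axis). Each point is a row: lower-numbered (grey), late-numbered in a snoRNA or scaRNA gene (green) and other late-numbered (orange). miR-5110, miR-5106 and miR-5119 lie at 117%, 84.3% and 76.4%, and the green points lie among the grey ones.

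miR-5110, antisense to Bcas3 at chr11:85760675-85760699 on the minus strand, was the most uneven of the abundant members. With 706 counts in all, it measured 733, 336 and 16.3 CPM in Bbs4-/-, 43.9, 1059 and 384 CPM in Bbs6-/-, and 535, 0 and 77.6 CPM in WT. Each line held both high and low libraries. Its log2 differences from WT, 0.78 in Bbs4-/- and 1.34 in Bbs6-/-, had SEs of 1.09 and 1.32, and without WT library 1 that of Bbs4-/- was 3.06 (edgeR, adjusted p = 0.0547).

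miR-5106 (618 counts) measured 948, 645 and 67.5 CPM in Bbs4-/-, 22.0, 314 and 155 CPM in Bbs6-/-, and 802, 71.2 and 459 CPM in WT. miR-5119 (646 counts), in an intron of Cdk12, a transcription kinase, at chr11:98262638-98262656, measured 499, 456.9 and 41.9 CPM in Bbs4-/-, 43.9, 345 and 278 CPM in Bbs6-/-, and 1471, 249 and 595 CPM in WT. Like miR-5110, both were lowest in Bbs4-/- library 3, in Bbs6-/- library 2 and in WT library 3 within their lines. None of the 3 passed an adjusted p of 0.1 in any comparison. Of all rows tested, 15.3% passed for Bbs4-/- against WT, 15.1% for Bbs6-/- against WT and 8.09% between the mutants.

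miR-6238 (383 counts), in an intergenic stretch at chr7:53891796-53891817, showed another order. It measured 303, 251 and 39.6 CPM in Bbs4-/-, 423, 47.9 and 80.1 CPM in Bbs6-/-, and 742, 347 and 278 CPM in WT. Bbs6-/- library 2, low for miR-5110, was high here, and without it the log2 difference between Bbs6-/- and WT moved from -1.39 (SE 0.76, edgeR, adjusted p = 0.316) to -2.76 (adjusted p = 0.00443). miR-6236 (382 counts) also had its highest library in WT library 1, at 754 CPM.

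miR-5099, for which no mature sequence was matched, was even across lines. It measured 1713, 1836 and 1460 CPM in Bbs4-/-, 2552, 1466 and 1944 CPM in Bbs6-/-, and 1909, 1202 and 2515 CPM in WT. The lines overlapped, and the log2 differences were -0.29 (SE 0.28) and 0.06 (SE 0.33) from WT and -0.25 (SE 0.29) between the mutants.

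The genotype comparisons called a row at an adjusted p under 0.1 and a log2 difference of at least 2 in either direction, the thresholds of the study. For Bbs4-/- against WT, 6.17% of the 308 rows tested were called, and of the 69 members tested none was. edgeR gave an unadjusted p under 0.05 to 5 of these members and to 80 of the 308 rows, and DESeq2 also called no member. For Bbs6-/- against WT, 4.03% of 298 rows were called and none of the 63 members, with 3 of them and 66 of the 298 rows at an unadjusted p under 0.05, and again no member by DESeq2. For Bbs4-/- against Bbs6-/-, 3.88% of 309 rows were called and 1 of the 76 members, miR-1943. The mutant comparisons with WT share the WT libraries.

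With the adjusted p alone, 15.3% of rows passed for Bbs4-/- against WT, 15.1% for Bbs6-/- against WT and 8.09% between the mutants. Of the members 1 passed in each, miR-2137 in the comparisons with WT and miR-1943 between the mutants. Lower-numbered rows passed in 36 of 195, 32 of 191 and 20 of 197 cases. The members had fewer counts: the median SE of the log2 difference for Bbs4-/- against WT was 1.27 for members and 0.52 for lower-numbered rows. Among rows with at least 100 and under 1000 counts the median SEs were 0.63 and 0.51, and 0 of 19 members and 17 of 60 lower-numbered rows passed the adjusted p for Bbs4-/- against WT. The counts for Bbs6-/- against WT were 0 of 19 and 13 of 60, and between the mutants 0 of 19 and 13 of 60.

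**Figure D5:**
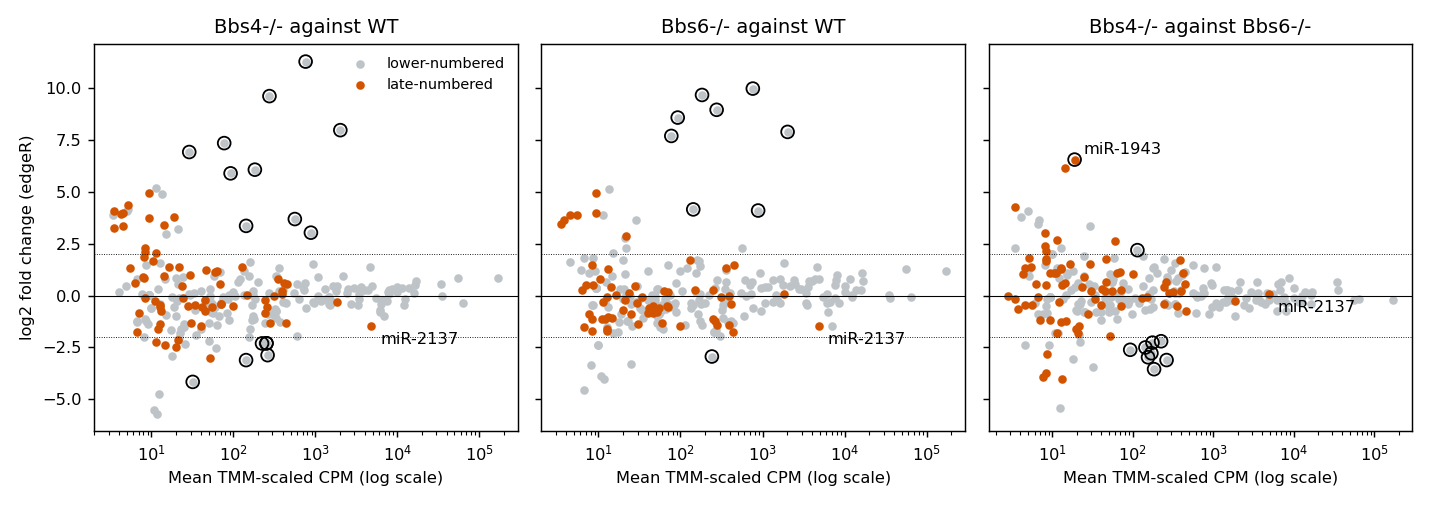
log2 fold change by edgeR against mean TMM-scaled CPM (log axis) in the 3 comparisons, for members (orange) and lower-numbered rows (grey). Black rings mark rows called at an adjusted p under 0.1 beyond the dotted lines at a log2 change of 2. The ringed member is miR-1943, between the mutants, and miR-2137 lies below 0 in both comparisons with WT.

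The median log2 difference of the members is given beside that of all rows. It was 0.03 over 69 members for Bbs4-/- against WT, beside -0.02 over all 308 rows, and with rows that one line held at or under 3 counts per library placed at their bound, or dropped where no fold could be given, it was -0.28 over 43 members and -0.12 over 238 rows. For Bbs6-/- against WT the medians were -0.35 over 63 members and -0.01 over all rows, and with bounds -0.54 over 43 members and -0.10 over 236 rows. Between the mutants they were 0.28 over 76 members and 0.04 over all rows, and with bounds 0.25 over 65 members and 0.07 over 276 rows. Single libraries moved these medians. That for Bbs4-/- against WT was -0.13 without Bbs4-/- library 1 and 0.37 without WT library 1. For Bbs6-/- against WT the median was -0.81 without Bbs6-/- library 3, -0.10 without WT library 1 and -0.73 on total counts without TMM. Between the mutants it was 0.05 without Bbs4-/- library 3 and 0.54 without Bbs6-/- library 2.

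miR-2137 lies in an intron of Zfp185, which encodes an actin-associated LIM protein, at chrX:72992113-72992133 on the plus strand. It measured 3648, 3843 and 2140 CPM in Bbs4-/-, 4028, 2802 and 2301 CPM in Bbs6-/-, and 14760, 5495 and 4654 CPM in WT. All 3 WT libraries lay above all 6 mutant libraries, and WT library 1, the shallowest, lay far above the other WT libraries. Bbs4-/- and WT did not overlap in 98 of the 308 rows tested and in 10 of the 69 members. For Bbs6-/- and WT it was 87 of 298 rows and 4 of 63 members. miR-2137 fell by 1.46 on the log2 scale in Bbs4-/- (SE 0.37, edgeR, adjusted p = 0.0177) and by 1.48 in Bbs6-/- (SE 0.45, adjusted p = 0.0728), and the mutants differed by 0.08 (SE 0.39).

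WT library 1 set the size of that difference. Without it the log2 differences were -0.65 in both mutants, with adjusted p = 0.0829 in Bbs4-/- and 0.253 in Bbs6-/-. The adjusted p also rose above 0.1, with a log2 difference of -1.49, without Bbs4-/- library 1 (0.210). For Bbs6-/- it did so without library 3 (-1.51, adjusted p = 0.216) and without library 4 (-1.21, adjusted p = 0.201). With edgeR's robust estimation of the spread neither comparison passed (adjusted p = 0.123 in Bbs4-/- and 0.143 in Bbs6-/-), at log2 differences of -1.46 and -1.48. The rows left out by name were likewise higher in WT, and their part in this difference was not tested.

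miR-1943 (39 counts) lies in an intron of Tmem184b, a membrane protein gene, at chr15:79375271-79375293 (5p arm) and chr15:79375236-79375256 (3p arm) on the minus strand. Its counts were 17, 2 and 19 in Bbs4-/-, 0 in each Bbs6-/- library, and 0, 1 and 0 in WT. Bbs4-/- libraries 1 and 3 were high, and Bbs4-/- library 2 was under the limit of 3 counts, as were all Bbs6-/- and WT libraries. The mean in Bbs4-/-, 53.6 ± 49.9 CPM (SD, n = 3), was 4.55-fold the level of 3 counts per library in Bbs6-/- (11.8 CPM). It was 1.95-fold that level in WT (27.5 CPM). These ratios leave out the spread of the Bbs4-/- libraries, and Bbs4-/- library 2, at 8.96 CPM, lay below both levels.

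The fitted log2 difference of miR-1943 between the mutants was 6.55 (SE 1.77, edgeR, adjusted p = 0.0618), and from WT it was 3.79 (SE 1.43, adjusted p = 0.116). These fitted values depend on the prior count. The call between the mutants was lost without Bbs4-/- library 1 (adjusted p = 0.298), Bbs4-/- library 3 (0.180), Bbs6-/- library 3 (0.161), Bbs6-/- library 4 (0.148) or WT library 3 (0.111). It was also lost with the column number as a replicate block in the fit (adjusted p = 0.279) and at a limit of 0.05 on the adjusted p, and edgeR's filterByExpr removed the row.

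A like pattern with fewer libraries was seen in miR-1946a (40 counts), named after its values were seen, with 7, 0 and 32 counts in Bbs4-/-, none in Bbs6-/- and 0, 1 and 0 in WT (edgeR, adjusted p = 0.110 between the mutants). miR-1199 (119 counts), in an exon of 2210011C24Rik and named in the same way, measured 164, 53.8 and 121 CPM in Bbs4-/-, 49.4, 6.84 and 2.86 CPM in Bbs6-/-, and 36.5, 35.6 and 64.6 CPM in WT. The mutant lines did not overlap for miR-1199 (log2 difference 2.64, SE 0.87, edgeR, adjusted p = 0.108), and without Bbs6-/- library 2 the difference was 4.35 (adjusted p = 0.00445).

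By number, 24 members lay from 1000 to below 2000, 26 from there to below 4000, 10 from there to below 6000 and 16 above. These bands held 14.4%, 50.6%, 29.6% and 5.41% of the members' counts, and 11, 8, 5 and 2 of their rows had a count in every library. The median total per row was 50, 26, 268 and 22.5 counts, so abundance did not fall evenly with the number. Among the chosen lists, miR-1247 (29 counts) was the 1 member among 3 late-numbered miRNAs of the imprinted Dlk1-Dio3 region, miR-3960 (12 counts) the 1 among the pair miR-2861 and miR-3960, and neither miR-1264 nor miR-1298, of the Htr2c intron, reached the limit. Both miRNAs listed as snoRNA-hosted, miR-1291 and miR-1839, were members. No member of these lists passed an adjusted p of 0.1, which 15.3% of all rows did for Bbs4-/- against WT. For Bbs6-/- against WT it was 15.1% of rows, and between the mutants 8.09%.

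The remaining members were less abundant. With 100 or more counts were miR-1198 (425), miR-1195 (157), miR-3470a (126) and miR-1949 (120). With 30 to 99 were miR-8117 (90), miR-3105 (80), miR-5112 (76), miR-1306 (74), miR-1191a (68), miR-1249 (57), miR-1957a (43), miR-3057 (41) and miR-1955 (38). miR-8117 was uneven, with 13 counts in 1 Bbs4-/- library, 40 and 3 in 2 Bbs6-/- libraries, 27 and 7 in 2 WT libraries and none in the rest. In Bbs4-/- it differed from WT by -2.98 on the log2 scale (edgeR, adjusted p = 0.150), and by -6.88 without Bbs4-/- library 3 (adjusted p = 0.00653) and -3.38 without WT library 1 (adjusted p = 0.0317).

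Under 30 counts were miR-3066, miR-5113 and miR-8112 (29 each), miR-3099 (24), miR-1947, miR-3079 and miR-3473d (21 each), miR-1964, miR-3963 and miR-6412 (20 each), miR-3102.2 and miR-3473e (19 each), miR-7688 (17) and miR-1194 (16). With 15 counts each were miR-1895, miR-1941, miR-3074, miR-5128 and miR-7213, followed by miR-3060 (14) and miR-1934 (13). Just inside the limit, with 9 to 12 counts, lay 11 members, which besides rows named above were miR-7669 (12), miR-1187, miR-3061 and miR-7667 (11 each), and miR-3086 and miR-6952 (9 each). They had a count in 2 to 5 libraries. Just outside, with 6 to 8 counts, lay 14 late-numbered rows, led by miR-1231 and miR-1969 (8 each), with a count in 1 to 4 libraries.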

How the data were processed

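Small RNA of smEV pellets was sequenced from 3 libraries per line on 1 flow cell. The authors trimmed adapters (cutadapt v1.9), filtered on quality, collapsed molecular identifiers, dropped short reads and counted miRNAs with miRDeep2. From its output they made the table, keeping the highest count where a miRNA was listed more than once. The submitters' processing notes name GRCm38. The miRBase release is not given in the sources used here. The deposited values are raw counts per miRNA. Column numbers of Bbs6-/- and WT differ from the sample labels and only name libraries.

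Members and lists were chosen with earlier results of these data known. Counts were fitted with edgeR 4.0.16 (R 4.3.3, TMM, quasi-likelihood, 6 libraries and rows with a total of at least 6 against WT, 9 libraries and at least 9 between mutants), with Benjamini-Hochberg adjustment over all rows, and with DESeq2 1.42.0 as an alternative. The fit was tested on simulated data. Named members were the 10 with the highest mean CPM, those called or with an adjusted p under 0.1, those from 50 counts whose libraries of a line did not overlap both others, and all others by total. Sequences came from RefSeq (GRCm38.p6, without arms on chromosome 18) and genes from GENCODE. The SE given with an edgeR log2 difference is its absolute value divided by the square root of the F statistic. Intervals and limits cover counting error only. Libraries of a line differed by more than sampling noise.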

Additional observations from a re-analysis of the deposited data

Results flagged for a closer look

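miR-1943 differed between the mutant lines when these were compared directly, with a log2 difference of 6.55 (edgeR, adjusted p = 0.0618), from 17, 2 and 19 counts in Bbs4-/- and none in Bbs6-/-. The fitted value depends on the prior count. The Bbs4-/- mean, with an SD of 49.9 CPM, was 4.55-fold the level of 3 counts per library in Bbs6-/-. The call was lost in 6 alternative fits and kept in 10, and filterByExpr removed the row. Groups of 3 libraries are too small for a test of single outlying libraries.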

How the results depend on the processing

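No member was called against WT by DESeq2, with either other scaling, with filterByExpr, with all 9 libraries in 1 fit, at an adjusted p under 0.05 or from 30 counts on. Members called for Bbs4-/- against WT, Bbs6-/- against WT and between the mutants numbered 0, 0 and 1 as reported. Leaving out each library gave 0 to 2, 0 to 2 and 0 to 3. Without the filter on low counts, and with robust estimation of the spread, 2 were called for Bbs4-/- against WT (miR-1943 and miR-8117) and 3 between the mutants (miR-1943, miR-1946a and miR-1199). With robust estimation the adjusted p of miR-2137 was 0.123 and 0.143. DESeq2 called 2 between the mutants, miR-1943 and miR-1199, and an adjusted p under 0.05 left 0. With no limit on the fold change 1 member passed in each comparison with WT, and with the 6 excluded rows added 1 and 2 were called. filterByExpr removed miR-1943 and called miR-1199. Neither the labels nor the study's methods say what equal numbers share, and the deviations of equal-numbered libraries correlated at -0.061 to 0.348, so a paired fit is given only here. The replicate block called 1 (miR-6238), 1 (miR-5110) and 2 (miR-1199 and miR-5110), and lost miR-1943 (adjusted p = 0.279).

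The median log2 difference of members ranged from -0.13 to 0.37, from -0.81 to -0.10 and from 0.05 to 0.54 over the fits without 1 library, and for Bbs6-/- against WT it was -0.73 on total counts. A count in every library was kept by 26 to 28 members over the sets of 8 libraries. The members' share of all counts, 0.999%, was 0.931% to 1.08% without 1 library and 6.13% with the excluded rows. The causes were not tested. The depth of the WT libraries limits what can be said of rows with few counts: 3 counts there stood for 19.4 to 36.5 CPM.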
